A study of Mus musculus with 24 samples.

Results

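The vascular endothelial growth factor (VEGF) ligands and receptors were followed across carotid arteries of estrogen-treated mice. They comprised 10 genes, chosen by symbol from the GENCODE M21 annotation: the ligands Vegfa, Vegfb, Vegfc, Vegfd and Pgf, the receptor tyrosine kinases Flt1, Kdr and Flt4, and the co-receptors Nrp1 and Nrp2. All 10 were found among the 55421 listed genes, and all 10 passed the filter that left 25033 genes for testing. The RNA came from uninjured carotid arteries of wild-type C57BL/6 female mice aged 9 weeks, ovariectomized and treated for 3 weeks according to the labels and series description, in 4 title groups of 6 libraries each. The OVX group received the placebo, the E2 group 17β-estradiol, the E4 group estetrol, a natural estrogen that carries additional hydroxyl groups compared with E2, and the TAM group tamoxifen, a selective modulator of estrogen receptors. The E4 libraries carry the word Placebo in their treatment field, so their group rests on their titles, and the labels give no dose for any agent. The study describes pellets adjusted to a like estrogenic effect for E2 and E4, so the agents were not compared at matched doses, and its methods name tamoxifen for the induction of Cre but describe no tamoxifen treatment group of this kind. Its methods also give a shorter course of pellets than the series description, so the exposure time of these libraries is uncertain. Each library bears its own animal number, and the series does not say whether tissue of several animals was pooled.

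VEGF ligands are secreted dimers that act on receptor tyrosine kinases, mainly on endothelial cells. Vegfa binds both Flt1 and Kdr, of which Kdr carries most of the mitogenic signal while Flt1 binds the ligand tightly, signals weakly and also exists as a soluble decoy. Vegfb and Pgf bind Flt1, Vegfc and Vegfd bind Flt4 of lymphatic endothelium, and the neuropilins join these complexes and also serve as receptors of class 3 semaphorins, the guidance cues of axons and vessels.

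Library totals ranged from 24647246 to 64221401 counts, and the members were read at 117 (Pgf) to 19779 (Vegfa) counts per library. Greb1, a classical estrogen-responsive gene, averaged 1.42 ± 0.673 CPM (counts scaled to the size of each library; SD, n = 6) in OVX, 7.61 ± 1.34 in E2, 3.17 ± 0.411 in E4 and 1.71 ± 0.548 in TAM. The endothelial markers Pecam1 and Cdh5 and the smooth muscle markers Myh11 and Acta2 were read in every library, Pecam1 at 189 to 517 CPM and Acta2 at 898 to 3236 CPM, but markers of sympathetic ganglion cells, B cells and adipocytes were also read. The ganglion marker mean was 0.973 in OVX animal C5 and 3.69 in TAM animal C35 on the log2 CPM scale, against 6.62 to 8.51 in the other 22 libraries. In this bulk tissue fewer cells of a type and less RNA per cell cannot be told apart.

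The promoter sequences of the members that the comparisons below turn on are shown first, as the stretch before the RefSeq start in the GRCm38.p6 build, cut where an exon of the gene begins in GENCODE M21. They are Vegfa and Nrp2, which changed with E4, and Flt1 and Kdr, which rose and fell together from library to library. The third gene that changed with E4, Pgf, is not shown because 0 bases of its 2 RefSeq windows precede its first exon in GENCODE M21. The stretches are chr17:46032378-46032627 (minus strand, 250 bases), chr1:62703067-62703284 (plus strand, 218 bases), chr5:147726012-147726261 (minus strand, 250 bases) and chr5:75978459-75978705 (minus strand, 247 bases), all read 5′ to 3′ on the strand of the gene. Capitals mark the GC box GGGCGG and the estrogen response half-site GGTCA, searched on both strands.
Vegfa: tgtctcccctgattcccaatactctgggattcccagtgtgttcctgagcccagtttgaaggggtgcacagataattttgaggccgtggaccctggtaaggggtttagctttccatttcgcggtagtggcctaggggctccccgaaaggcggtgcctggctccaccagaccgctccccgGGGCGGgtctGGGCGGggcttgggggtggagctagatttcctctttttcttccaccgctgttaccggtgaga
Nrp2: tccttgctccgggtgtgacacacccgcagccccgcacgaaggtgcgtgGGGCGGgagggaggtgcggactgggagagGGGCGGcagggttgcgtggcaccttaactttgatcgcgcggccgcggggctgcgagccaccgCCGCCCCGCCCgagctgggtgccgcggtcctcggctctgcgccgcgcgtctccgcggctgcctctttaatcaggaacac
Flt1: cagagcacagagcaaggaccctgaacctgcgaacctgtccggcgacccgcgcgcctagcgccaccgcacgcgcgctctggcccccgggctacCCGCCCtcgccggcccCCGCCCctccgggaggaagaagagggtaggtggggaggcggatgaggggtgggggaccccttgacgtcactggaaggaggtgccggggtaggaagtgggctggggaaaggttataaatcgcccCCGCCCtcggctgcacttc
Kdr: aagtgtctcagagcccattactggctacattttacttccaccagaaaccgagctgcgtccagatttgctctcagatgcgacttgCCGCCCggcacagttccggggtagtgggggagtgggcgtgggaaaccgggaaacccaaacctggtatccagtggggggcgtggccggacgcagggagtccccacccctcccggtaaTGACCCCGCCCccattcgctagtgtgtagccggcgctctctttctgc
All 4 stretches were rich in G and C, from 59.2% in Vegfa to 72.5% in Nrp2. The GC box occurred 2 times in Vegfa, 4 times in Nrp2, 3 times in Flt1 and 2 times in Kdr, and 32.7% of 32851 RefSeq windows of 250 bases held at least 1. A half-site was found only in Kdr among these 4, directly beside a GC box, and 35.2% of all windows held one. The full estrogen response element, GGTCA and its reverse complement TGACC set 3 bases apart, was in none of the 12 windows of the 10 members and in 0.064% of all windows. The hypoxia response core ACGTG, whose letters are also part of the E-box CACGTG, was absent from the 4 stretches, occurred 1 time in the second RefSeq window of Vegfa (chr17:46025164-46025413), and was found in 16.6% of all windows. Of the 4, Flt1 held TATAAA, which 12.4% of windows held. These are matches of letters within short windows and carry no information on binding.

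Vegfa dominated the ligands in carotid arteries. Set per kilobase of annotated exon, so that genes of unequal length can be compared, Vegfa averaged 60.8 CPM per kb over the 24 libraries and ranked first of the 10 members in every library. Vegfb, a ligand of Flt1, followed at 15.1 CPM per kb, Nrp2 at 12.1 and Nrp1 at 8.29. Vegfb and Nrp2 exchanged ranks between libraries, as did Nrp2 and Nrp1. Kdr averaged 5.08, Flt1 3.55, the lymphatic ligands Vegfd and Vegfc 3.08 and 2.39, Pgf 1.30 and Flt4 1.10 CPM per kb. The ranges of neighbors from Kdr down overlapped, and Pgf and Flt4 shared the last 2 ranks. Vegfa made up 77.2 ± 3.5% (SD, n = 6) of the summed ligand level per kb in OVX, 72.5 ± 3.3% in E2, 67.5 ± 3.7% in E4 and 74.6 ± 3.1% in TAM.

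**Figure D1:**
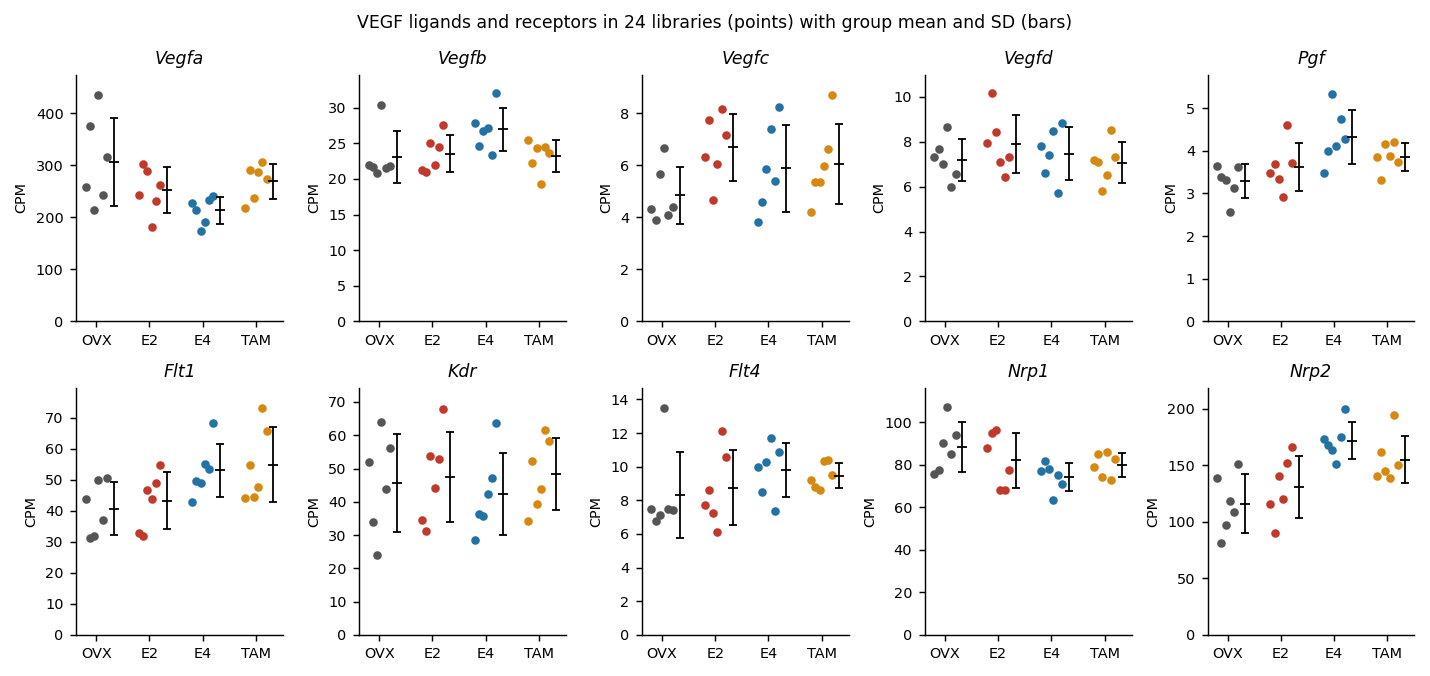
Library-scaled counts (CPM) of the 10 VEGF ligands and receptors in the 24 libraries, 1 panel a gene, with the 4 groups on the horizontal axis, a point for each library and a bar for the group mean and SD. Vegfa fell from 307 CPM in OVX to 213 in E4 and Nrp2 rose from 116 to 172, while no member had groups free of overlap.

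Members passed edgeR's quasi-likelihood test across all genes in E4 against OVX. Vegfa, the main angiogenic ligand, fell, whereas Pgf, the placental growth factor that binds Flt1, and the co-receptor Nrp2 rose. These 3 of 10 members were called at a Benjamini-Hochberg adjusted p under 0.05, against 22% of all tested genes in the same comparison, and DESeq2 also called 3. The 2 that rose stand beside 9.52% of tested genes called higher, and the 1 that fell beside 12.5% called lower. No member passed with a fold over 2, which 2.51% of tested genes did, and no member's groups were free of overlap, as they were for 9.37% of tested genes in E4, 2.83% in E2 and 2.58% in TAM. The members' median log2 fold change was 0.23, beside -0.014 over all tested genes.

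Vegfa (chr17:46016993-46032369, minus strand, GRCm38) ranged from 215 to 435 CPM in OVX, with a median of 287, and from 174 to 241 CPM in E4, with a median of 220. The groups overlapped through OVX C4 alone, the lowest OVX library, since the other OVX libraries started at 243 CPM, above every E4 library. The log2 fold change was -0.53 (SE 0.15, 95% interval -0.84 to -0.21, adjusted p = 0.0178, edgeR). It lost its call without OVX C5 (-0.39, adjusted p = 0.0617) or without OVX C3 (-0.46, adjusted p = 0.0536), the libraries with the highest Vegfa, and was -0.65 among animals numbered up to 20 and -0.33 among those numbered from 24.

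Vegfa also moved with the adipocyte markers. Over the 24 libraries its log2 CPM correlated with the mean of 5 adipocyte markers at r = 0.61 (Spearman's rho 0.58), at r = 0.82 after group means were removed and at r = 0.47 without the 2 libraries farthest from the median marker mean. These points share library, scaling and treatment group, so the coefficients are descriptive. The adipocyte marker mean ranged from 7.83 to 8.78 in OVX and from 7.73 to 8.17 in E4 on the log2 CPM scale, and 2 of the 5 markers, Lep and Fabp4, were lower in E4 at an adjusted p under 0.05. In TAM the adipocyte marker mean ranged from 7.56 to 8.12, while Vegfa had a log2 fold change of -0.19 (adjusted p = 0.498, edgeR). With that mean as a covariate the log2 fold change of Vegfa in E4 was -0.14 (adjusted p = 0.482, edgeR). Vegfa also had r = -0.63 with the ganglion marker mean, and with that mean as a covariate its log2 fold change was -0.35 (adjusted p = 0.0718, edgeR). Beyond these fits the part of adipocyte or ganglion RNA in the result was not tested.

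Pgf (chr12:85166635-85177790, minus strand) was the least counted ligand. It ranged from 2.57 to 3.64 CPM in OVX, with a median of 3.36, and from 3.49 to 5.32 CPM in E4, with a median of 4.20. The ranges met only at their ends, where the lowest E4 library lay below the 2 highest OVX libraries. The log2 fold change was 0.40 (SE 0.12, 95% interval 0.16 to 0.63, adjusted p = 0.0185, edgeR), and it was 0.40 among animals numbered up to 20 (adjusted p = 0.136) and 0.38 among those from 24 (adjusted p = 0.450), past the threshold in neither. The call was also lost without E4 C20 (0.33, adjusted p = 0.0582), when the fit included the mean of the ganglion markers (0.32, adjusted p = 0.0611) and when it included that of the adipocyte markers (0.32, adjusted p = 0.141, edgeR) or the B cell markers (0.28, adjusted p = 0.469). As Vegfa fell and Pgf rose, the ratio of Vegfa to Pgf CPM had a median of 82.3 in OVX and 51.5 in E4, a description chosen after both values were seen.

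Nrp2 (chr1:62703285-62818695, plus strand) had the lowest adjusted p of the members. It ranged from 81.4 to 152 CPM in OVX, with a median of 114, and from 151 to 200 CPM in E4, with a median of 171. Only the highest OVX library reached the lowest E4 library. The log2 fold change was 0.57 (SE 0.14, 95% interval 0.27 to 0.86, adjusted p = 0.00816, edgeR), 0.62 among animals numbered up to 20 (adjusted p = 0.0452) and 0.44 among those from 24 (adjusted p = 0.426), and it kept its call whichever library was left out. Nrp1, a co-receptor of Kdr, had a log2 fold change of -0.25 (adjusted p = 0.068). The ratio of Nrp2 to Nrp1 CPM ran from 1.05 to 1.84 in OVX and from 2.05 to 2.84 in E4, without overlap, again a ratio chosen after its parts were seen. How often ratios of other genes separate was not computed. Markers of Schwann and satellite glia moved with Nrp2 from library to library (r = 0.77 over 24 libraries, 0.81 with group means removed). Their mean ranged from 6.66 to 7.51 in OVX and from 7.14 to 8.04 in E4, and 1 of 5, Sox10, was higher in E4, but their part in the result was not tested.

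The other 7 members did not pass the test in E4. Flt1 (chr5:147561604-147726011, minus strand) ranged from 42.9 to 68.4 CPM in E4, Kdr (chr5:75932827-75978458, minus strand) from 28.5 to 63.8, Flt4 from 7.34 to 11.7, Vegfb from 23.3 to 32.1, Vegfc from 3.82 to 8.23, Vegfd from 5.72 to 8.84 and Nrp1 from 63.2 to 81.9 CPM. In OVX these were 31.2 to 50.6 CPM for Flt1, 23.9 to 63.9 for Kdr, 6.77 to 13.5 for Flt4, 20.9 to 30.4 for Vegfb, 3.91 to 6.68 for Vegfc, 5.99 to 8.66 for Vegfd and 75.6 to 107 for Nrp1, so every one of them overlapped. Flt1 had a log2 fold change of 0.38 (SE 0.16, adjusted p = 0.0886), Vegfb 0.23 (adjusted p = 0.0942), Vegfc 0.28 (adjusted p = 0.294), Flt4 0.24 (adjusted p = 0.306), Vegfd 0.056 (adjusted p = 0.765) and Kdr -0.11 (SE 0.23, adjusted p = 0.757), all by edgeR with Benjamini-Hochberg adjustment. Within OVX Kdr varied most, with a coefficient of variation of 32.5%, and its 95% interval in E4, from -0.58 to 0.36, covered both directions. With the B cell marker mean as a covariate no member passed (Nrp2 0.33, adjusted p = 0.467), and all 5 B cell markers were lower in E4, with means from -1.46 to 0.31 against -0.17 to 2.59 in OVX, and their part in the result was not tested further. Without the libraries OVX C5 and TAM C35, 6 members passed, the added ones being Vegfb, Flt1 and Flt4, and without OVX C2 Nrp1 passed (-0.29, adjusted p = 0.0386, edgeR). The animal numbers fall into a series up to 20 and a series from 24, which the labels do not explain. In the first series alone 1 member, Nrp2, passed in E4 (adjusted p = 0.0452), and in the second, with fewer libraries, 0 passed (adjusted p from 0.426 to 0.494 for Nrp2, Pgf and Vegfa, edgeR).

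**Figure D2:**
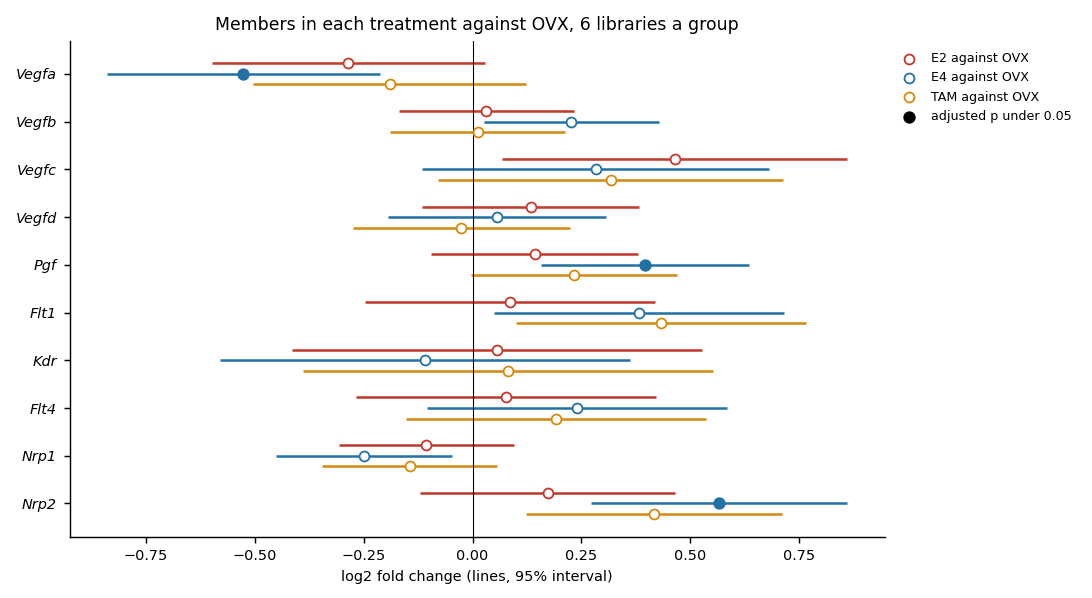
Log2 fold change of each VEGF member in E2, E4 and TAM against OVX (points) with its 95% interval (lines), filled where the adjusted p of edgeR's quasi-likelihood test was under 0.05. The 3 filled points are Vegfa (-0.53), Pgf (0.40) and Nrp2 (0.57) in E4, and the comparisons share the same 6 OVX libraries.

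No member passed the test with E2. edgeR called 0 of 10 members, against 4.16% of all tested genes, and DESeq2 also called 0. At an unadjusted p under 0.05 there was 1, Vegfc, the ligand of lymphatic vessel growth. Vegfc ranged from 3.91 to 6.68 CPM in OVX, with a median of 4.36, and from 4.66 to 8.16 CPM in E2, with a median of 6.75, so the groups overlapped. Its log2 fold change was 0.46 (SE 0.19, unadjusted p = 0.0235, adjusted p = 0.208, edgeR). Vegfc followed vessel wall markers, with r = 0.80 against the endothelial and 0.76 against the smooth muscle marker mean over 24 libraries with group means removed, and with the endothelial mean as a covariate its log2 fold change in E2 was 0.53 (SE 0.12, adjusted p = 0.00732, edgeR), as large as without it. The part of smooth muscle cells in its level was not tested. Among animals numbered up to 20 the log2 fold change was 0.28 (adjusted p = 0.793) and among those from 24 it was 0.74 (adjusted p = 0.306), so neither series passed alone. Vegfc also passed with the ganglion marker covariate (0.58, adjusted p = 0.0281, edgeR) and without OVX C5 and TAM C35 (0.57, adjusted p = 0.0496). Vegfa had a log2 fold change of -0.29 in E2 (adjusted p = 0.375), which passed with the adipocyte marker covariate (-0.34, adjusted p = 0.0382), and Nrp2 0.17 (adjusted p = 0.645), the E2 libraries lying between 181 and 303 CPM for Vegfa and between 90.2 and 166 CPM for Nrp2. The remaining 7 members had log2 fold changes from -0.11 (Nrp1) to 0.14 (Pgf), and the median over the 10 was 0.081, beside 0.0060 over all tested genes.

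No member passed with TAM either. edgeR and DESeq2 each called 0 of 10, against 2.21% of all tested genes, and 2 had an unadjusted p under 0.05. Nrp2 ranged from 139 to 194 CPM in TAM, with a median of 148, which overlapped OVX at its upper end, and its log2 fold change was 0.42 (SE 0.14, unadjusted p = 0.00742, adjusted p = 0.1002, edgeR). Flt1, the receptor that Vegfa, Vegfb and Pgf share, ranged from 44.0 to 73.1 CPM in TAM and from 31.2 to 50.6 CPM in OVX, and its log2 fold change was 0.43 (SE 0.16, unadjusted p = 0.0133, adjusted p = 0.129). Vegfa had a log2 fold change of -0.19 (adjusted p = 0.498) and Pgf 0.23 (adjusted p = 0.248). The other 6 members lay between -0.14 (Nrp1) and 0.32 (Vegfc), and the median of the 10 was 0.14, beside -0.0033 over all tested genes.

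Set against each other in 3 pairs, the agents gave no member past the threshold in edgeR, which does not show that they act alike. E4 against E2 gave 0 of 10 calls by edgeR, against 12.5% of tested genes, with 2 members at an unadjusted p under 0.05 and 1 call by DESeq2. The DESeq2 call was Nrp2, with a log2 difference of 0.39 higher in E4 (95% interval 0.099 to 0.69, adjusted p = 0.0689 by edgeR and 0.0402 by DESeq2). It also passed in edgeR without OVX C3 (adjusted p = 0.0482) or without E2 C29 (adjusted p = 0.0276). Of the 24 fits that left out 1 library these 2 alone passed, the difference running from 0.31 to 0.47. With the B cell marker covariate the difference was 0.26 (adjusted p = 0.382, edgeR). Of the 5 Schwann and satellite glia markers, which followed Nrp2 from library to library, 3 were higher in E4 than in E2, with a median log2 difference of 0.60, and their mean log2 CPM ranged from 5.74 to 7.20 in E2 and from 7.14 to 8.04 in E4. All 5 macrophage and all 4 T cell markers were lower in E4 than in E2 (medians -1.07 and -2.90), as were 4 of 6 fibroblast markers (-0.55). The part of these cell types in the result was not tested. The other member at an unadjusted p under 0.05 was Pgf, 0.25 higher in E4 (95% interval 0.015 to 0.49, adjusted p = 0.142). For Vegfa the interval ran from -0.55 to 0.073, which includes 0. TAM against E2 gave 0 calls by edgeR and by DESeq2, against 6.44% of genes, and 1 member, Flt1, at an unadjusted p under 0.05, the members' log2 differences lying between -0.16 and 0.35. TAM against E4 likewise gave 0 calls by both, against 0.34% of genes, with Vegfa and Vegfb at an unadjusted p under 0.05 and differences between -0.21 and 0.34.

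Each receptor was also set against the mean of 12 endothelial markers in the same library, a log2 ratio that does not depend on scaling. This mean ranged from 5.40 to 6.09 in OVX and from 5.35 to 5.88 in E4 on the log2 CPM scale, although 3 of its markers were lower in E4 and 1, Vwf, was higher. The 12 markers had a median log2 fold change of -0.24 in E4, and lower markers raise a ratio to them. In E4, Flt1 rose by 0.52 on the log2 scale relative to endothelial markers, from a mean of -0.32 ± 0.29 in OVX to 0.20 ± 0.087 (SD, n = 6; exact two-sided permutation test, p = 0.00216, the smallest that 6 against 6 allow, adjusted p = 0.0325 over 15 comparisons). The 6 E4 ratios, 0.078 to 0.30, all lay above the 6 OVX ratios, -0.65 to 0.050. Of single genes 9.37% separated in E4 against OVX, and no such share was computed for ratios. Nrp2 rose by 0.72 (exact permutation p = 0.00433, n = 6, adjusted p = 0.0325), from a range of 0.80 to 1.72 to a range of 1.68 to 2.09. Flt4 had a difference of 0.39 (exact permutation, adjusted p = 0.0758), Kdr 0.047 (adjusted p = 0.853) and Nrp1 -0.11 (adjusted p = 0.617). In TAM, the difference of Flt1 was 0.38 (exact permutation, adjusted p = 0.0974) and that of Nrp2 0.38 (adjusted p = 0.286), and none of the 5 receptors passed in E2, where adjusted exact permutation p ranged from 0.548 to 0.712. The Flt1 and Nrp2 calls each fell short of the threshold when any 1 of the 6 E4 libraries was left out (adjusted p from 0.0541 to 0.0974), the differences then being 0.51 to 0.55 for Flt1 and 0.68 to 0.77 for Nrp2. Over the 24 libraries Nrp2 had r = 0.074 with the endothelial marker mean and 0.77 with that of Schwann and satellite glia (0.23 and 0.81 with group means removed). Nrp2 thus hardly followed the mean it was set against. Flt1 had 0.49 and 0.75 (0.64 and 0.71), and Kdr 0.59 and 0.42 (0.58 and 0.59). The part of glial RNA in the results for these receptors was not tested.

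Flt1 and Kdr were tightly coupled within groups. Their log2 CPM correlated at r = 0.75 over 24 libraries (rho 0.76, r = 0.72 without the 2 libraries farthest from the median of Flt1), and at r = 0.94 with group means removed, a description of points that share libraries and cell content. The ratio between them differed by treatment. The ratio of Flt1 to Kdr ranged from 0.780 to 1.33 in OVX, with a median of 0.873, from 0.810 to 1.02 in E2, with a median of 0.939, from 1.07 to 1.503 in E4, with a median of 1.33, and from 1.05 to 1.28 in TAM, with a median of 1.13. These are ratios of CPM, not set per kilobase of exon. Per kilobase, Kdr averaged 47.2% and Flt1 40.4% of the summed kinase level in E4, so a ratio above 1 does not mean more Flt1 than Kdr. The counts also do not separate the soluble form of Flt1. All 12 E4 and TAM libraries lay above all 6 E2 libraries and above 5 of the 6 OVX libraries, the exception being OVX C4. How often ratios of other genes separate in this way was not computed. On the log2 scale the ratio was higher than in OVX by 0.48 in E4 (exact two-sided permutation test, n = 6, p = 0.0108, adjusted p = 0.0325 over 3 comparisons) and by 0.31 in TAM (exact permutation, p = 0.0325, adjusted p = 0.0487), and the difference in E2 was 0.0052 (exact permutation, p = 0.976). The E4 call was lost without OVX C2, C3, C5, C24 or C25 (0.43 to 0.48, adjusted p from 0.0519 to 0.0714) and the TAM call without any of those 5 or of the 6 TAM libraries (0.26 to 0.33, adjusted p from 0.0584 to 0.0942). Within the animals numbered up to 20 the differences were 0.57 in E4 and 0.28 in TAM, with adjusted exact permutation p of 0.171 and 0.386. Within those from 24 they were 0.42 and 0.38, and there 3 libraries against 2 allow no exact p under 0.1, the value that both reached (adjusted p = 0.15), so that series could not pass.

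**Figure D3:**
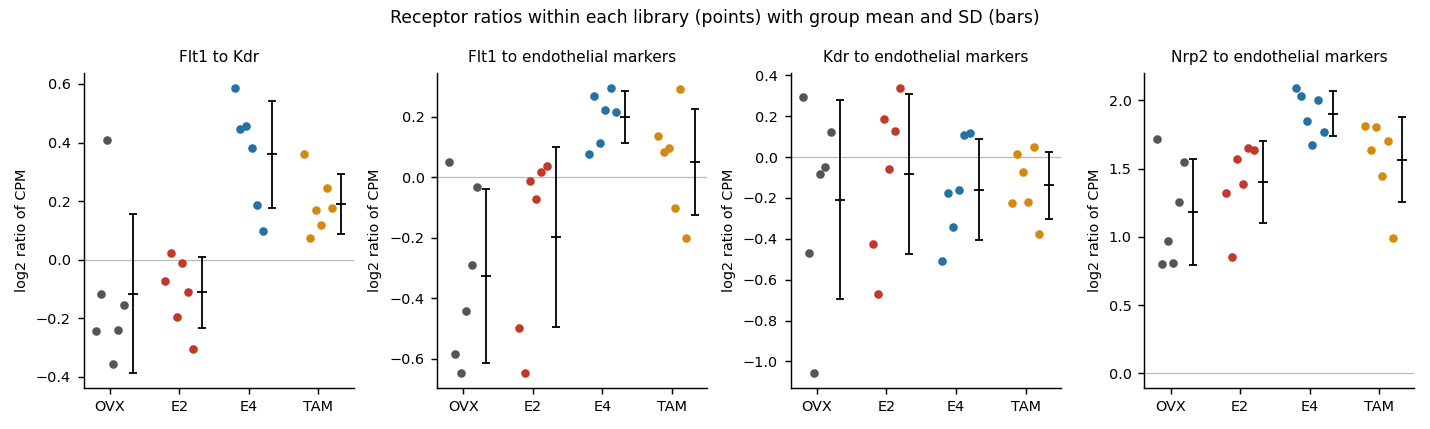
Log2 ratio of CPM within each library (points) for Flt1 to Kdr and for Flt1, Kdr and Nrp2 to the mean of 12 endothelial markers, by group, with group mean and SD (bars). Flt1 to Kdr, not set per kilobase of exon, is above 0 in all E4 and TAM libraries, while Kdr to endothelial markers overlaps across groups.

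**Figure D4:**
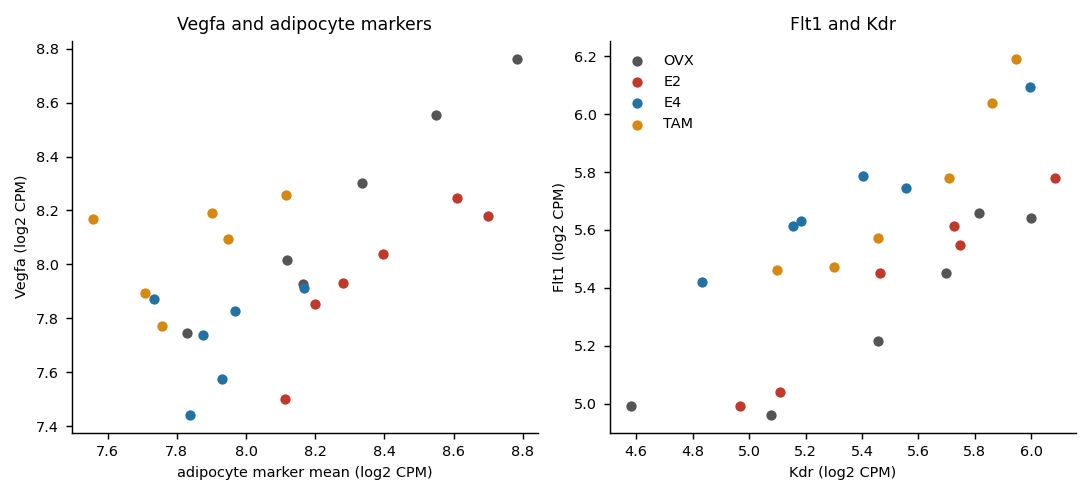
Left, Vegfa against the mean of 5 adipocyte markers, and right, Flt1 against Kdr, all in log2 CPM, with a point for each of 24 libraries colored by group. Vegfa has r = 0.61 with the adipocyte marker mean over all 24 points, and Flt1 has r = 0.75 with Kdr, the E4 and TAM points lying higher than E2 points of like Kdr level.

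Of the 45 pairs of members, Flt1 and Nrp2 were also closely related. Flt1 and Nrp2 had r = 0.86 over 24 libraries (rho 0.75, 0.82 with group means removed), and Vegfb and Flt4 had r = 0.65 (rho 0.60). Over all 24 libraries Pgf and Nrp1 had the most negative coefficient of the 45 pairs, r = -0.53 (rho -0.55, -0.33 with group means removed). Without OVX C5 and TAM C35 it was -0.38, and Vegfb and Nrp1 had the most negative coefficient, r = -0.50. Among 19528 other genes with a mean of at least 1 CPM, the pattern most like that of Vegfa was that of Il15ra, the interleukin 15 receptor alpha chain (r = 0.91), then Kyat3 (0.90), and for Vegfb Csnk2b, the regulatory subunit of casein kinase 2 (0.84), and Sgta (0.81). Vegfc was most like the protein disulfide isomerases Txndc5 (0.89) and P4hb (0.86), Vegfd like Pcbd2 (0.81) and Dpep1 (0.78), and Pgf like the predicted gene Gm7368 and Polr1a (both 0.80). Flt1 was most like Abhd4 and Rapgef1 (both 0.92), Kdr like the adenosine receptor Adora2a (0.88) and the HIF prolyl hydroxylase Egln1 (0.85), and Flt4 like Gm8770 (0.74) and Csnk2b (0.72). Nrp1 was most like Zfp106 (0.89) and Gm8188 (0.86), and Nrp2 like D17Wsu92e (0.94) and Pdzd2 (0.93). All are Pearson coefficients of log2 CPM over the same 24 libraries, which share scaling, tissue content and treatment.

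The genes around VEGF signaling were taken from 8 lists of known roles. In E4, where 22% of all tested genes passed, the lists' median log2 fold changes ran from -0.20 for angiopoietin-Tie genes and VEGF-C processing to 0.14 for receptor signaling, beside -0.014 over all tested genes. Among 20 genes known to be induced by VEGF in endothelium, Apln, the ligand of the apelin receptor, was lower with every treatment, and Lrg1, a secreted glycoprotein that modulates endothelial TGF-β signaling, was higher. Apln ranged from 5.15 to 10.02 CPM in OVX, 2.27 to 3.73 in E2, 1.92 to 3.58 in E4 and 2.34 to 4.39 in TAM, each below every OVX library, as did 0.831%, 4.07% and 1.09% of tested genes in E2, E4 and TAM. Its log2 fold changes were -1.22, -1.24 and -0.83 (adjusted p = 0.000299, 0.000412 and 0.0286, edgeR). Lrg1 averaged 8.24 ± 3.64 CPM in OVX and 33.5 ± 9.69 in E2, 25.5 ± 9.75 in E4 and 21.9 ± 5.07 in TAM, with log2 fold changes of 2.02, 1.63 and 1.41 (adjusted p = 2.15e-05, 0.000491 and 0.00927). The list held 2 higher and 1 lower gene in E2, the third being Cd34 (0.72), 2 and 2 in E4, with Plvap, a diaphragm protein of fenestrated endothelium, at 0.77, and 1 and 1 in TAM, with a median log2 fold change of -0.10, -0.094 and 0.076. These counts stand beside 4.16%, 22% and 2.21% of all tested genes in E2, E4 and TAM. The 3 comparisons share the OVX libraries.

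Of 27 components of VEGF receptor signaling, 0 passed in E2, 5 were higher and 2 lower in E4, and 1 was higher in TAM. The shares of all tested genes that passed, against which these and the following counts are to be read, were 4.16% in E2, 22% in E4 (9.52% higher and 12.5% lower) and 2.21% in TAM. Shb, an adaptor that binds Kdr, had log2 fold changes of 0.74 in E4 and 0.65 in TAM (adjusted p = 0.00173 and 0.0246, edgeR), Akt1 rose by 0.29 in E4, and the adaptor Nck1 fell by 0.24 in E4. Of 9 hypoxia factors, the pathway that controls Vegfa transcription, 3 were higher in E4 (Hif3a 0.99, Egln3 0.43 and Egln2 0.30) and 1 in TAM (Hif3a 1.12), and 0 passed in E2. Of 15 hypoxia targets, 2 were higher and 1 lower in E4: Ddit4, an inhibitor of mTORC1, at 1.03, Ndrg1 at 0.61 and the carbonic anhydrase Car9 at -0.66. P4ha1, a subunit of collagen prolyl 4-hydroxylase, was the 1 that passed in E2 (0.39), and 0 passed in TAM.

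Among 13 neuropilin partners, semaphorins of class 3 moved in both directions. Sema3c fell by 0.35 in E2 and by 0.57 in E4 (adjusted p = 0.0249 and 0.00048, edgeR), Sema3d rose by 0.79 in E2, and Sema3g, expressed by arterial endothelium, rose by 0.72 in E4 together with the adaptor Gipc1 (0.26). None of the 13 passed in TAM. In VEGF-C processing, 1 of 7 genes passed, the urokinase gene Plau, which fell by 0.66 in E4. Of 6 angiopoietin and Tie genes, Angpt1 fell by 0.64 in E4 and Svep1, a matrix protein, rose by 0.63 in TAM. Of 9 tested angiogenesis inhibitors, Sparc fell by 0.65 in E2 and by 0.67 in E4, the thrombospondin gene Thbs1 rose by 0.66 in TAM, its relative Thbs2 and the serpin gene Serpinf1 fell by 0.46 and 0.48 in E4 and Timp3 rose by 0.50 in E2, 1 being higher and 1 lower in E2, 1 and 3 in E4, and 1 and 0 in TAM. Fibroblast markers were also lower in E4, 4 of 6 passing, with means of 8.22 to 8.96 against 8.79 to 9.53 in OVX, and their part in the results for matrix genes was not tested. Exons of Angpt1, Car9, Cd34, Egln2, Ndrg1, Svep1, Thbs1 and Timp3 overlap those of another gene, and the strand setting of the counting is not given in the sources used here, so these values are less certain. Of the members, Nrp1 shares 80 of its 9785 exon bases with the microRNA gene Mir1903 on the same strand. It alone held decimal counts, in 9 libraries.

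**Figure D5:**
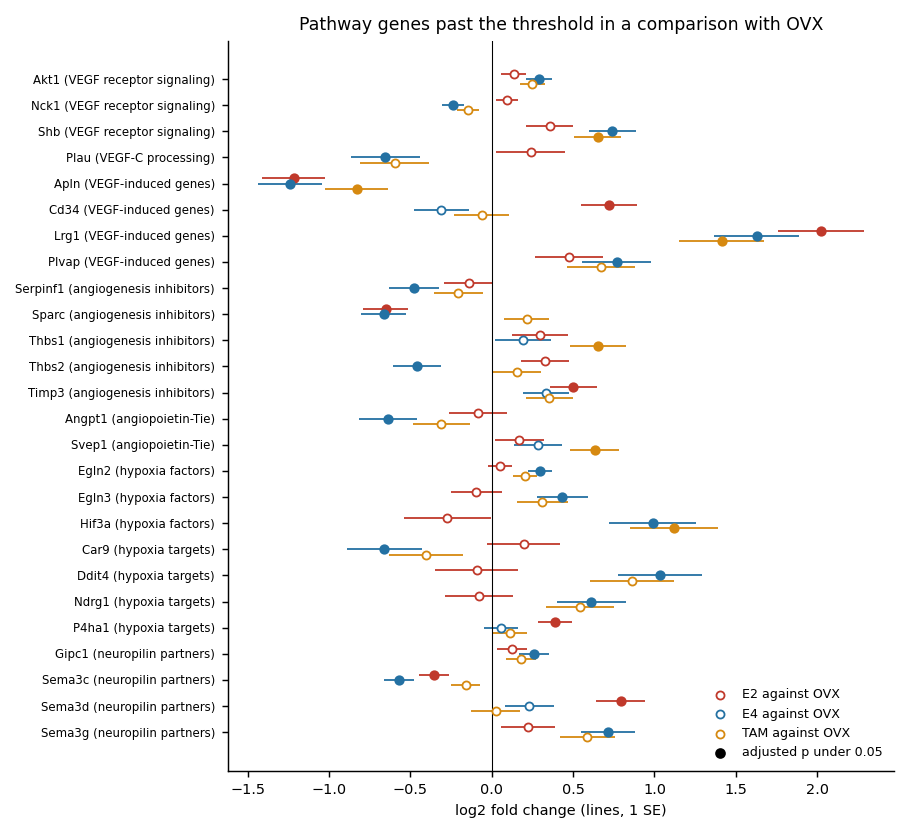
Log2 fold change in E2, E4 and TAM against OVX (points, with 1 SE as lines) of the pathway genes that passed in at least 1 of these comparisons and were named by the rule, grouped by list and filled where the adjusted p was under 0.05. Lrg1 is higher (1.41 to 2.02) and Apln lower (-1.24 to -0.83) with all 3 agents.

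Lymphatic endothelium, which carries Flt4, was read at low level. Its 6 markers had a median log2 fold change of -0.065 in E2, 0.025 in E4 and -0.085 in TAM, with 1 called higher in E2, 1 lower in E4, the chemokine gene Ccl21a (-0.71), and 0 in TAM. Ccl21a has near-identical copies in the mouse genome, so its count is uncertain, and it is named after its value was seen. Prox1, its defining transcription factor, averaged 7.99 ± 3.20 CPM (SD, n = 6) in OVX and did not pass in E4 (0.43) or E2 (0.094), and it was lowest in the ganglion-poor libraries OVX C5 (3.36 CPM) and TAM C35 (1.51 CPM). The 1 higher in E2, Lyve1, which perivascular macrophages also express, rose by 1.24 in E2 on the log2 scale, where all 5 macrophage markers were higher. Flt4 itself ranged from 6.77 to 13.5 CPM in OVX and from 6.14 to 12.1 CPM in E2, with a log2 fold change of 0.077 (adjusted p = 0.919, edgeR).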

How the data were processed

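RNA of carotid arteries was sequenced in 24 libraries, and the authors deposited 1 table of estimated counts per library, made per the labels with bcl2fastq 2.17, Trim Galore, Bowtie2 and featureCounts on mm10 (GRCm38). Between 8.87% and 9.8% of values held decimals and were rounded here. Strand and multimapping settings are not given in the sources used here.

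Ensembl identifiers were matched to GENCODE M21. Genes passing filterByExpr (25033) were fitted over all 24 libraries with edgeR 4.0.16 (R 4.3.3, TMM, quasi-likelihood, Benjamini-Hochberg), and log2 CPM used a prior count of 2. Ratios were compared by exact two-sided permutation tests (SciPy 1.17.1). Alternatives included DESeq2 1.42.0, RLE scaling, no filter, fewer groups, marker covariates, each series of animal numbers and leaving out each library. On simulated data of 25033 genes for E4 against OVX, 87.5% of 200 genes changed by 1.5 on the log2 scale were called, with 8 unchanged genes called. The largest change of a member was 0.57 (Nrp2 in E4), so the simulation does not show how often changes of that size are called. Pathway genes are named for up to 3 per list and comparison, by smallest adjusted p under 0.05. The members and lists were chosen with earlier results of these data known. The p-values measure the spread between these libraries, each with its own animal number.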

Additional observations from a re-analysis of the deposited data

Results flagged for a closer look

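In 3 of 64 groups of 6 values, 1 library stood apart from the others by Dixon's criterion at 95%, and chance alone gives about 1 in 20 groups, or 3.2 here. Vegfb was at 30.4 CPM in OVX C5 while the other OVX libraries were at 20.9 to 21.9 CPM. Flt4 was at 13.5 CPM in the same library, against 6.77 to 7.50 CPM in the others, and this library also had a ganglion marker mean of 0.973. Without OVX C5, Vegfb (0.33, adjusted p = 0.0128, edgeR) and Flt4 (0.44, adjusted p = 0.0327) passed in E4 against OVX. The log2 ratio of Flt1 to Kdr was 0.41 in OVX C4, against -0.36 to -0.12 in the other OVX libraries.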

How the results depend on the processing

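Of the 1878 alternative values computed, 1056 of single members and 661 of the other results were kept. For single members and ratios this means the same direction and side of the threshold. For counts of called members it means a count near the main one, such as 2 to 4 in place of 3 in E4 against OVX. Against OVX, Nrp2 in E4 passed in 35 of 37 alternatives, Pgf in 31 and Vegfa in 30. No paired analysis was possible because the replicate numbers are animal numbers that no groups share. Pgf, the least counted member, had as few as 117 counts per library. Where calls changed, the cause was not tested, except that fits within 1 series of animal numbers or without a library hold fewer samples. For ratios among animals from 24, 3 libraries against 2 allow no exact p under 0.1, so those calls could not be kept.

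In E4 against OVX, the ganglion covariate lost the calls of Vegfa (adjusted p = 0.0718, edgeR) and Pgf (0.0611) and added Vegfb (0.0171) and Flt1 (0.0424), and the adipocyte covariate lost Vegfa (0.482) and Pgf (0.141) and added Vegfb (0.0139) and Flt1 (0.0472), each fit keeping 3 called members. Counts of called members that changed, ratios that crossed the threshold and values that changed sign follow, as log2 differences from OVX (ratios to the endothelial marker mean as /endothelial) or counts of called members. With DESeq2 in place of edgeR, called members numbered 1 (Nrp2) in E4 against E2. With only the 2 groups compared in the fit, called members numbered 1 (Nrp2) in E4 against E2. Without OVX C5 and TAM C35, called members numbered 1 (Vegfc) in E2, 6 in E4 and 1 (Nrp2) in E4 against E2. The log2 differences there were 0.023 for Kdr in E4, 0.029 for Vegfd in TAM, 0.45 for Flt4/endothelial in E4, -0.043 for Flt1/Kdr in E2, 0.43 for Flt1/Kdr in E4 and 0.26 for Flt1/Kdr in TAM. With animal numbers up to 20 alone, called members numbered 1 (Nrp2) in E4. The log2 differences there were -0.083 for Vegfb in E2, -0.078 for Flt1 in E2, -0.13 for Kdr in E2, -0.15 for Flt4 in E2, 0.081 for Nrp1 in E2, -0.11 for Vegfc in E4, -0.078 for Vegfd in E4, -0.061 for Vegfc in TAM, -0.060 for Kdr in TAM, 0.56 for Flt1/endothelial in E4, -0.013 for Kdr/endothelial in E4, 0.19 for Nrp1/endothelial in E2, 0.13 for Nrp1/endothelial in E4, 0.072 for Nrp1/endothelial in TAM, 0.92 for Nrp2/endothelial in E4, -0.0045 for Flt1/Kdr in E2, 0.57 for Flt1/Kdr in E4 and 0.28 for Flt1/Kdr in TAM. With animal numbers from 24 alone, called members numbered 0 in E4. The log2 differences there were 0.037 for Kdr in E4, 0.055 for Vegfa in TAM, 0.26 for Vegfd in TAM, 0.41 for Flt1/endothelial in E4, -0.014 for Kdr/endothelial in E4, -0.22 for Kdr/endothelial in TAM, 0.41 for Nrp2/endothelial in E4, -0.025 for Nrp2/endothelial in TAM, 0.42 for Flt1/Kdr in E4 and 0.38 for Flt1/Kdr in TAM. With the endothelial marker mean as a covariate, called members numbered 1 (Vegfc) in E2, 6 in E4 and 1 (Nrp2) in E4 against E2. Log2 values in that fit were 0.0090 for Kdr in E4. With the sympathetic ganglion marker mean as a covariate, called members numbered 1 (Vegfc) in E2. Log2 values in that fit were 0.039 for Kdr in E4 and 0.031 for Vegfd in TAM. With the B cell marker mean as a covariate, called members numbered 0 in E4. Log2 values in that fit were -0.011 for Kdr in E2, 0.0010 for Vegfd in TAM and -0.018 for Kdr in TAM. With the adipocyte marker mean as a covariate, called members numbered 1 (Vegfa) in E2, 1 (Vegfb) in E4 against E2, 1 (Vegfa) in TAM against E2 and 1 (Vegfa) in TAM against E4. Log2 values in that fit were 0.21 for Kdr in E4, 0.28 for Vegfa in TAM and 0.25 for Vegfd in TAM. With the series of animal numbers as a covariate, the log2 differences were -0.033 for Kdr in E2 and -0.00089 for Kdr in TAM.

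Leaving out 1 library at a time gave 2 to 4 called members in E4 against OVX, 0 to 1 called members in E4 against E2, -0.018 to 0.13 for Vegfb in E2, -0.076 to 0.18 for Kdr in E2, -0.040 to 0.27 for Flt4 in E2, -0.26 to 0.019 for Kdr in E4, -0.015 to 0.11 for Vegfb in TAM, -0.085 to 0.041 for Vegfd in TAM, -0.050 to 0.21 for Kdr in TAM, 0.46 to 0.60 for Flt1/endothelial in E4, -0.046 to 0.24 for Kdr/endothelial in E2, -0.12 to 0.15 for Kdr/endothelial in E4, -0.10 to 0.17 for Kdr/endothelial in TAM, 0.35 to 0.46 for Flt4/endothelial in E4, 0.64 to 0.83 for Nrp2/endothelial in E4, -0.043 to 0.11 for Flt1/Kdr in E2, 0.43 to 0.58 for Flt1/Kdr in E4, 0.26 to 0.41 for Flt1/Kdr in TAM.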
